A study of Mus musculus with 16 samples.

Results

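Dppa2, Dppa4, Dppa5a, Fbxo15, Tcl1, Utf1 and Tdgf1 are 7 genes that mouse embryonic stem (ES) cells express and that lie outside the core transcription factors of pluripotency. They are 7 of the 18193 genes with a probe set of their own on these arrays, and 10 probe sets (groups of short probes read as 1 value) carry their symbols. All 7 were found. Dppa2 has 2 probe sets, Utf1 has 3 and the other 5 genes have 1 each. The genes were chosen by name, with earlier results of these same arrays known, the effects of the Rybp knockout among them. Their levels, folds and adjusted p-values are therefore given as a description taken from a fit across the whole table, and they are not independent evidence of a direction.

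The study removed Rybp, a subunit of variant Polycomb repressive complexes, from ES cells of a 129/B6 hybrid background and measured total RNA on Affymetrix arrays. KO cells had received 4-hydroxytamoxifen (OHT) at 800 nM for 24 hours, and their RNA was taken 4 or 12 days after it. Control cells were untreated cells of the same clones, which the labels call wild type, with 4-day and 12-day samples of their own. The 16 arrays form 4 groups of 4 (KO day 4, control day 4, KO day 12, control day 12), each with replicates 1 and 2 of clone 15 and of clone 10. Each clone is a single line, so what is common to both rests on 2 lines. Since OHT was given to KO cells alone, its own effects and those of Rybp removal cannot be told apart, and the labels do not name what OHT acts on in these cells. The culture medium held serum and leukaemia inhibitory factor, and cells grew either on irradiated fibroblasts as feeders or on gelatin, with no label giving the surface used for an array. Nothing in the labels shows that replicates came from separate cultures. The p-values then cover the spread among these arrays only, and that spread may be technical.

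ES cells keep their identity through transcription factors such as Oct4, Sox2 and Nanog, and the 7 genes are known mostly as targets or companions of that network. Dppa2 and Dppa4 encode partner proteins with a SAP domain that bind chromatin and switch on genes of the 2-cell embryo, Dppa5a encodes an RNA-binding protein of the KH-domain type, and Utf1 a chromatin-bound protein. Fbxo15 encodes an F-box protein, the substrate-binding kind of subunit of SCF ubiquitin ligases, Tcl1 a coactivator of the kinase Akt, and Tdgf1 (Cripto) the co-receptor through which Nodal signals. In the RefSeq annotation Dppa4 and Dppa2 are adjacent coding genes on chromosome 16. Tcl1 lies beside its family member Tcl1b4 on chromosome 12.

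RefSeq promoter sequences (assembly GRCm38.p6, 250 bases before to 50 after the start of the gene) are shown for 3 of the 7 genes. Those of the others, Fbxo15 among them, are not reported here. The 3 were not chosen by their results, which differ: at day 12 Tcl1 was higher in KO cells, Utf1 was lower and Tdgf1 differed by less than its SE. Capitals mark GC boxes, the letters GGGCGG or, on the other strand, CCGCCC. Tcl1 is shown from chr12:105222688-105222987 on the minus strand, Utf1 from chr7:139943606-139943905 on the plus strand and Tdgf1 from chr9:110946109-110946408 on the minus strand.
Tcl1: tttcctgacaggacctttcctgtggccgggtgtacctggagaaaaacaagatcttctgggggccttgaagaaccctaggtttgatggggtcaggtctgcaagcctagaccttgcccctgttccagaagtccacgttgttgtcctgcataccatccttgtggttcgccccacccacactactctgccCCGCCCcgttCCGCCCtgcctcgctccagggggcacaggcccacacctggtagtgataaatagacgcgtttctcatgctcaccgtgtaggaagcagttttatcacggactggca
Utf1: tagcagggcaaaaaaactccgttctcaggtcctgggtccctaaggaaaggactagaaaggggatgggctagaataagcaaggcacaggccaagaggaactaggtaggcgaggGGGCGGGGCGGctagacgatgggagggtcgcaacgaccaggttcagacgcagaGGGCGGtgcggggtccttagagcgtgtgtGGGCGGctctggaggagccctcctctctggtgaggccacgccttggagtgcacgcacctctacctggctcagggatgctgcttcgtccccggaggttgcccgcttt
Tdgf1: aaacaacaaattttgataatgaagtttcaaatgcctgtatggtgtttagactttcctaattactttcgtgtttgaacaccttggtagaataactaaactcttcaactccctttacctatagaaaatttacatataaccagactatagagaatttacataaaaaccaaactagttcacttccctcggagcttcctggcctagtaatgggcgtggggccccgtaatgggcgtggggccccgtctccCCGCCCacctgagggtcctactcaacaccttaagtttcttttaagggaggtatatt

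GC boxes, with overlapping matches counted, numbered 2 in the Tcl1 promoter, 4 in that of Utf1 and 1 in that of Tdgf1, and 35.7% of 32851 promoters of this length hold at least 1. Utf1 had 62% G or C and 17 CpG dinucleotides, Tcl1 56.7% and 11, and Tdgf1 41.7% and 7, against medians of 52.7% and 7 over all promoters. The octamer ATTTGCAT (in 1.74% of all promoters), the E-box CACGTG (7.15%), the E2F6-type site GCGGGAA (4.60%) and the TATA box TATAAA (13.6%), searched on both strands, had no match in the 3 windows. These are descriptions of letters in a window, not binding sites.

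Levels are the deposited intensities, on a linear scale with a median of 93.3 on every array. Apart from the sums of markers, they are compared between arrays within 1 probe set only. The targeted transcript marked the groups as labelled. Rybp probe set 1421111_at ranged from 84.9 to 255.7 over the 8 KO arrays and from 2047 to 3434 over the 8 control arrays, while the other Rybp probe set, 1428219_at, was higher in KO cells in 4 of 4 pairs at both days. On 1428219_at the clones differed. Control cells read 157 to 297 in clone 15 and 1404 to 2771 in clone 10, a called difference (log2 -3.27 ± 0.26 SE, limma adjusted p = 0.00425). KO over control was 14.7- to 30.2-fold in pairs of clone 15 and 2.00- to 2.75-fold in those of clone 10. Both sets also match a Rybp pseudogene, and the position of their probes relative to the deleted part is not given in the sources used here. Among the 7 ES cell markers, Pou5f1 (Oct4) ranged from 7558 to 13405 and Sox2 from 8601 to 14452 over all 16 arrays. Nanog ranged from 7762 to 13052.5, Zfp42 from 2289 to 9896, Esrrb from 1699.5 to 5146 and Alpl from 604 to 1632. Fut4 was below 28.3, the 25th percentile of all values, on all 4 control arrays of day 12. Of the 7 markers the fit called 0 at day 4 and 1 at day 12, Fut4, higher in KO cells. These are RNA from whole cultures, so fewer cells that express a gene and less RNA per cell cannot be told apart.

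The 7 genes did not move as a block after Rybp removal. At day 12 the limma fit called Fbxo15, Dppa2 and Tcl1 higher in KO cells and Utf1 lower, at an adjusted p under 0.05. That is 4 of the 7 genes, where the fit called 563 of 18195 entries, or 3.09%. At day 4 it called Fbxo15 alone, higher, 1 of 7 where 114 entries, or 0.627%, were called. With each KO array set against the control array of its own clone, day and replicate number as a block, the calls over all entries were 178 (0.978%) at day 4 and 1479 (8.13%) at day 12, and the calls of the 7 genes were the same. SE, adjusted p and left-out fits of single genes below come from the fit without this block. With it the SE of the KO effect was 0.09 for Utf1 and Fbxo15, 0.08 for Dppa4, 0.11 for Tcl1 and 0.15 for Dppa2. The limma adjusted p at day 12 was then 0.00539 for Utf1, 0.00224 for Fbxo15, 0.0285 for Tcl1 and 0.0175 for Dppa2. The median log2 fold change of the 7 genes was 0.02 at day 4 and -0.0007 at day 12, against 0.01 over all entries at either day. The genes were chosen with these contrasts known, so nothing is read from those shares. The share of all entries whose KO and control arrays do not overlap was not counted. Ranges without overlap, given below for single genes, are therefore descriptions only.

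**Figure D1:**
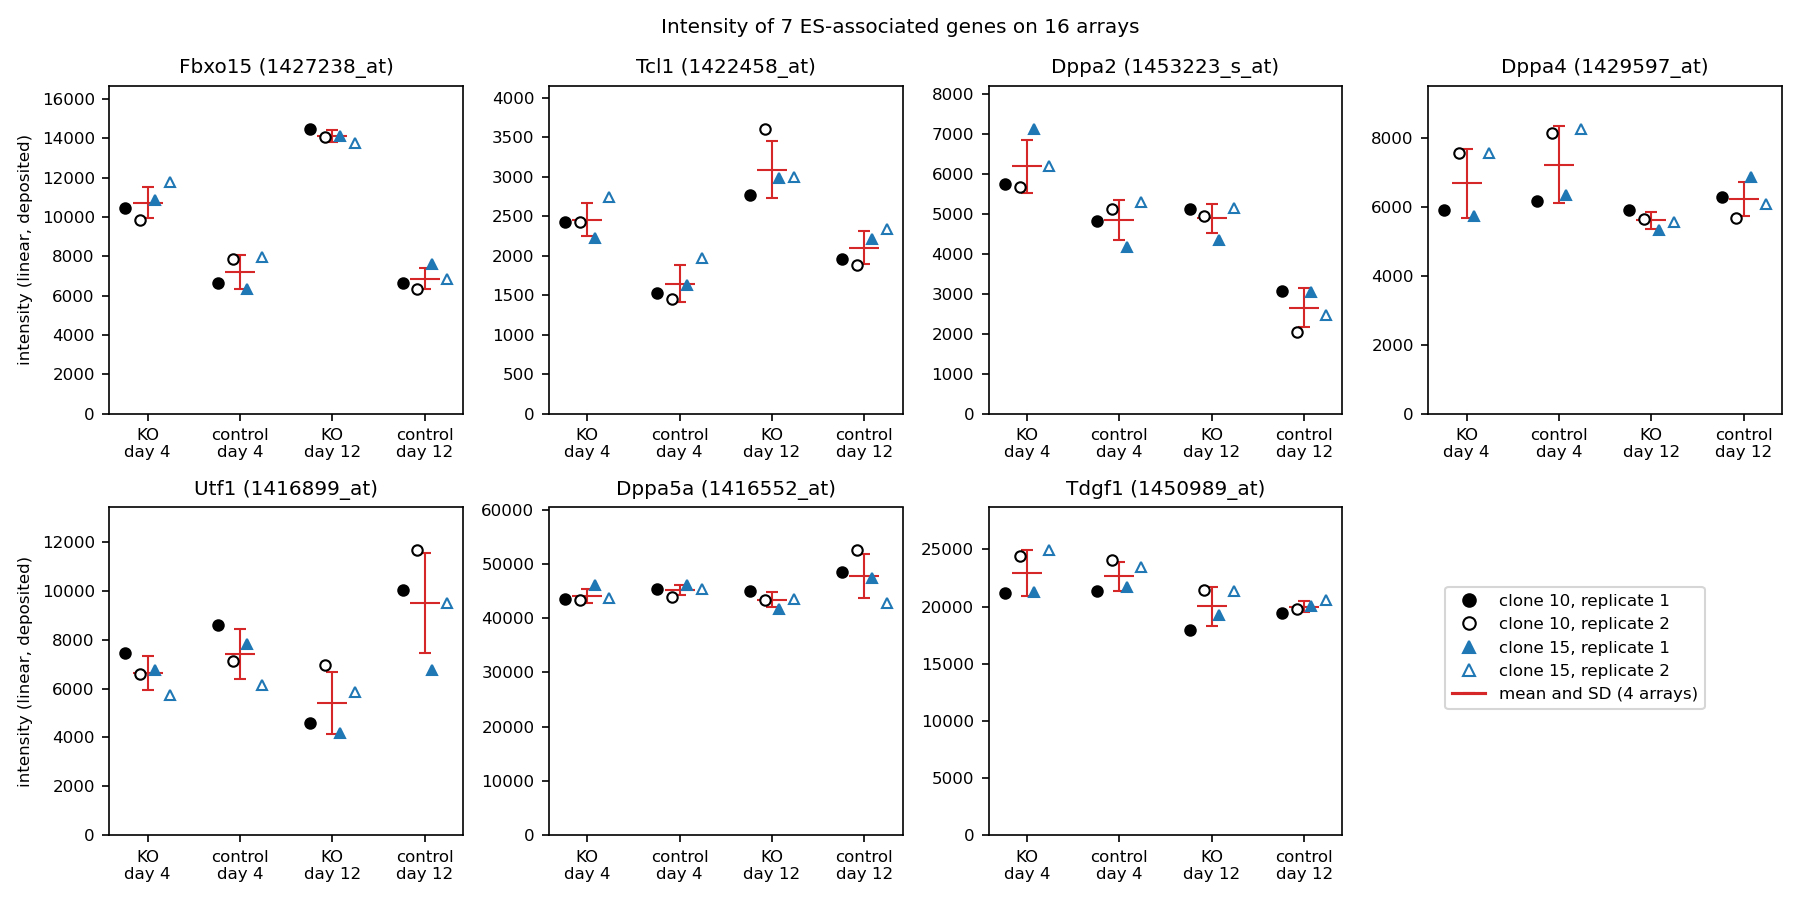
Linear intensity of the main probe set of each gene on the 16 arrays, KO left of control at each day, with circles for clone 10, triangles for clone 15, filled symbols for replicate 1 and open symbols for replicate 2, and red lines for the mean and SD of 4 arrays. KO and control arrays are apart at both days for Fbxo15, Tcl1 and Dppa2, Utf1 overlaps at both days, and Dppa4, Dppa5a and Tdgf1 overlap at both days. The share of all entries that part in this way was not counted.

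A sign of RNA quality and markers of other cell types also differed between the groups. The 3′ over 5′ log2 signal of the transferrin receptor control was higher in KO in 4 of 4 pairs at day 4, and in 1 of 4 at day 12. It averaged 1.26 ± 0.19 in KO and 1.06 ± 0.09 in control cells at day 4 (SD, n = 4 each, here and for the controls that follow). At day 12 it averaged 1.17 ± 0.12 in KO and 1.19 ± 0.14 in control cells. The actin control stood at 0.50 ± 0.05 in KO and 0.48 ± 0.08 in control cells at day 4, and at 0.52 ± 0.09 and 0.45 ± 0.03 at day 12. The Gapdh control stood at -0.28 ± 0.06 in KO and -0.30 ± 0.07 in control cells at day 4, and at -0.33 ± 0.04 and -0.31 ± 0.01 at day 12. Pairs were counted for the transferrin receptor alone. The summed intensity of 6 primitive endoderm markers was 2238 to 4162 in KO and 1477 to 1957 in control cells at day 12, and 303 to 669 in KO and 284 to 589 in control cells at day 4. At day 12 the fit called 1 of the 6, Gata6, higher in KO cells (log2 fold change 0.98 ± 0.24 SE, limma adjusted p = 0.0483), and 1 of 5 trophectoderm markers, Cdx2 (2.55 ± 0.46, limma adjusted p = 0.0103), whose control arrays read 3.39 to 12.4, all under the 25th percentile. The summed trophectoderm markers were 1866 to 1998 in KO and 1373 to 1817 in control cells at day 4. These sums do not overlap, and none of the 5 markers was called there. At day 12 the sums were 3682 to 6007 in KO and 3531 to 5245 in control cells at day 12. None of 14 feeder fibroblast markers was called in either KO contrast, and their sum was 6379 to 7503 in KO and 5462 to 6891 in control cells at day 12 and 3968 to 5580 in KO and 3757 to 4592 in control cells at day 4. None of 4 mesoderm and 5 neural ectoderm markers was called. No marker of feeders or primitive endoderm was under the 25th percentile on every array of a group. Such sums are set mostly by their brightest genes. Among the trophectoderm markers Krt18 averaged 4107 in KO and 3850 in control cells at day 12. The part of these differences in the results was not tested.

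Fbxo15, whose promoter is a known target of Oct4 and Sox2, had the largest day 12 difference among the main probe sets of the 7 genes. The second Utf1 set, described with that gene, stood at -1.07 on the log2 scale. At day 4 its probe set 1427238_at read 10847 and 11752.5 in KO cells of clone 15 and 10457 and 9829 in KO cells of clone 10, against 6317 and 7964 in control cells of clone 15 and 6613 and 7863 in control cells of clone 10 (replicates 1 and 2 in this order, here and for the genes that follow). At day 12 it read 14109 and 13754 in KO cells of clone 15 and 14481 and 14045 in KO cells of clone 10, against 7624 and 6856 in control cells of clone 15 and 6621 and 6343 in control cells of clone 10. KO arrays were above control arrays at both days without overlap, and the 4 KO arrays of day 12 lay above every other array. The fold was 1.50 at day 4 (log2 fold change 0.58 ± 0.11 SE, with a limma adjusted p of 0.0326) and 2.06 at day 12 (1.04 ± 0.11, limma adjusted p = 1.8e-04). The effect was larger at day 12 by 0.46 ± 0.15 on the log2 scale, a difference that did not pass adjustment (limma adjusted p = 0.998). No entry of 18195 passed that test of the difference between days (0% called by limma, 832 at an unadjusted p under 0.05), and with the pairs as a block 1 did.

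The day 12 call of Fbxo15 held without any single array, and the day 4 call did not. At day 4 the limma adjusted p was 0.0513 to 0.106 without any 1 of the 4 KO arrays of day 4, replicate 1 of the day 4 control in either clone, any 1 of the 4 KO arrays of day 12, or replicate 2 of the day 12 control of clone 15, at log2 fold changes of 0.50 to 0.61. Within clone 15 the log2 fold change was 0.67 at day 4 and 0.95 at day 12, and within clone 10 it was 0.49 at day 4 and 1.14 at day 12. From day 4 to day 12 the level in KO cells was higher at day 12 by 0.40 ± 0.11 on the log2 scale (limma adjusted p = 0.0697, so not called), while the control cells differed by -0.06 ± 0.11 (limma adjusted p = 0.854).

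Tcl1, the Akt coactivator, differed between KO and control cells by nearly the same fold at both days. At day 4 its probe set 1422458_at read 2228 and 2746 in KO cells of clone 15 and 2424 and 2431 in KO cells of clone 10, against 1634 and 1972 in control cells of clone 15 and 1529 and 1448 in control cells of clone 10. At day 12 it read 2989.75 and 2994 in KO cells of clone 15 and 2771 and 3608 in KO cells of clone 10, against 2212 and 2333 in control cells of clone 15 and 1959 and 1887 in control cells of clone 10. KO and control arrays did not overlap at either day, and KO was higher in 4 of 4 pairs at each. The fold was 1.50 at day 4 (log2 fold change 0.58 ± 0.13 SE), where the limma adjusted p of 0.0641 missed the threshold, and 1.47 at day 12 (0.56 ± 0.13, limma adjusted p = 0.0306). The difference of the effect between days was -0.03 ± 0.18.

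The calls of Tcl1 lay close to the threshold. Without any 1 of the 8 arrays of day 12 the day 12 call was lost (limma adjusted p = 0.0571 to 0.0937, log2 fold change 0.45 to 0.59), and without replicate 2 of the day 12 KO cells of clone 10, which holds the highest value of all, the day 4 difference was called (limma adjusted p = 0.0476). The effect at day 12 was 0.40 within clone 15 and 0.72 within clone 10, and at day 4 it was 0.46 within clone 15 and 0.71 within clone 10. Averaged over both days, the KO effect differed between clone 15 and clone 10 by -0.28 ± 0.19 (limma adjusted p over 18195 entries = 0.9999, none called, 0%, 585 at an unadjusted p under 0.05). The level at day 12 was above that at day 4 by 0.33 ± 0.13 in KO cells and 0.35 ± 0.13 in control cells, neither of which passed (limma adjusted p = 0.203 and 0.218).

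Dppa2 was the 1 member called between day 12 and day 4 in control cells, on 1 of its 2 probe sets. On probe set 1453223_s_at, the brighter of its pair and the one used in the fit, day 12 values were 4347 and 5138 in KO cells of clone 15 and 5108 and 4947 in KO cells of clone 10, against 3036 and 2462 in control cells of clone 15 and 3065 and 2033 in control cells of clone 10. At day 4 they were 7124 and 6187 in KO cells of clone 15 and 5749 and 5670.0 in KO cells of clone 10, against 4163 and 5298 in control cells of clone 15 and 4818 and 5106 in control cells of clone 10. The 4 control arrays of day 12 lay below every other array, and KO arrays were above control arrays at both days without overlap. In control cells the level fell by 0.89 ± 0.15 on the log2 scale at day 12 against day 4 (limma adjusted p = 0.0141). This was the 1 call among the 7 genes in a comparison that called 181 entries, or 0.995%. With arrays of the same clone and replicate number joined across days as a block, 346 entries were called. In KO cells the Dppa2 level differed by -0.34 ± 0.15 (limma adjusted p = 0.286), in a comparison that called 595 entries, or 3.27%, and none of the 7 genes. KO over control was 1.28-fold at day 4, or 0.35 ± 0.15 on the log2 scale (limma adjusted p = 0.509), and 1.87-fold at day 12, or 0.90 ± 0.15 (limma adjusted p = 0.00566). The difference between these effects, 0.55 ± 0.21, did not pass adjustment over all entries (limma unadjusted p = 0.0219).

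The call of Dppa2 at day 12 held without any single array, whereas its call with time in control cells was lost without replicate 2 of the day 4 control in either clone or replicate 2 of the day 12 control of clone 15 (limma adjusted p = 0.0501 to 0.0516). Markers moved with that time contrast too. In control cells the summed feeder markers were 5462 to 6891 at day 12 and 3757 to 4592 at day 4. The summed primitive endoderm markers were 1477 to 1957 at day 12 and 284 to 589 at day 4, and the summed trophectoderm markers were 3531 to 5245 at day 12 and 1373 to 1817 at day 4. Their part in the result was not tested. Bright genes weigh most in these sums. In control cells Acta2 averaged 1503 at day 4 and 2456 at day 12, Tagln 735 and 1138, and Krt18 1158 and 3850, while the feeder markers Lum, Dcn and Pdgfrb averaged lower at day 12. The median log2 change of the list was 0.46 for feeder, 2.04 for primitive endoderm and 0.70 for trophectoderm markers. Over the 14 feeder markers the fit called Acta2 higher at day 12 in control cells, and over the 6 endoderm markers it called 2 higher, Gata6 and Sox17. Over the 5 trophectoderm markers it called Krt18 higher at day 12, by 1.72 on the log2 scale (limma adjusted p = 6.7e-04). It called Cdx2 lower (-2.76, limma adjusted p = 0.0142).

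The other Dppa2 probe set, 1429654_at, gave another picture. It read 3312 and 4749 in KO cells of clone 15 and 2826 and 4291 in KO cells of clone 10 at day 4, against 2224 and 4367 in control cells of clone 15 and 2234 and 4349 in control cells of clone 10. At day 12 it read 3570 and 5677 in KO cells of clone 15 and 3192 and 4661 in KO cells of clone 10, against 2735 and 3520 in control cells of clone 15 and 2557 and 3147 in control cells of clone 10. KO was higher in 3 of 4 pairs at day 4 and in 4 of 4 at day 12, with overlapping ranges. The fit over every probe set gave a log2 fold change of 0.25 ± 0.28 at day 4 and 0.49 ± 0.28 at day 12 (limma adjusted p = 0.984 and 0.535), and -0.07 ± 0.28 for day 12 against day 4 in control cells (limma adjusted p = 0.946). The fall with time in control cells was therefore read by 1 of the pair of probe sets. The suffix _s_at marks a set whose probes match more than 1 transcript.

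**Figure D2:**
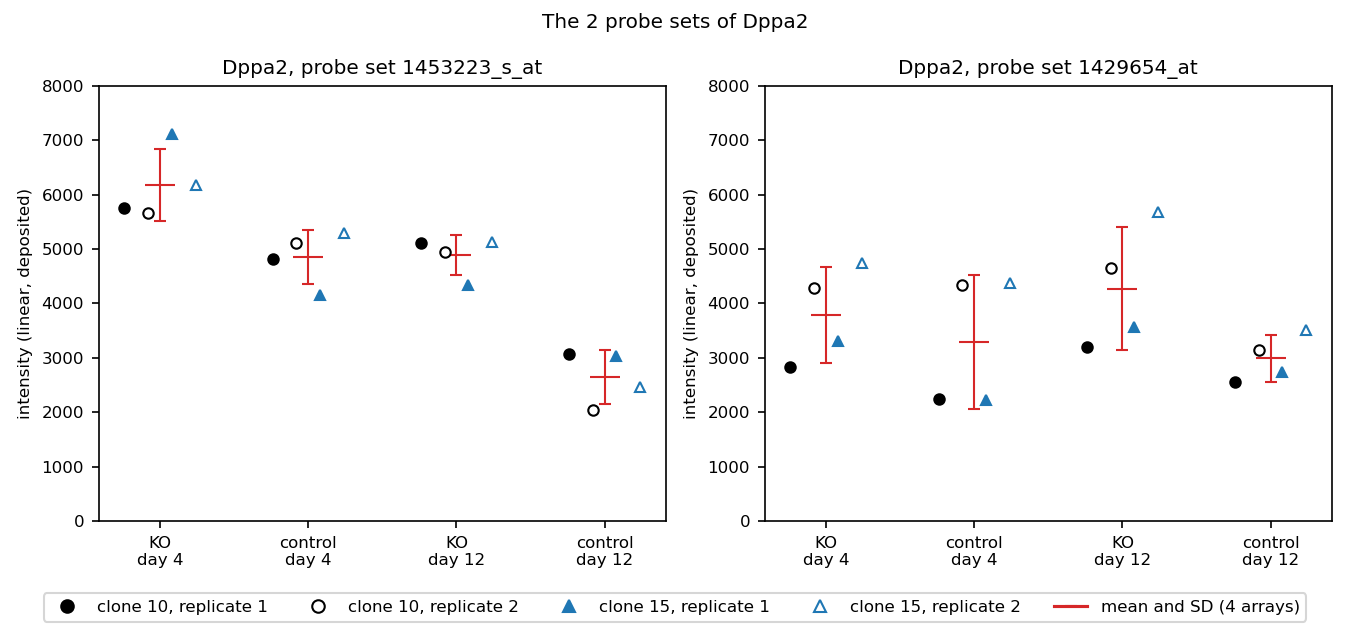
Linear intensity of both Dppa2 probe sets on the 16 arrays, with symbols for clone and replicate and red lines for the mean and SD of 4 arrays. On 1453223_s_at the day 12 control arrays, 2033 to 3065, lie below all others, whereas on 1429654_at open symbols (replicate 2) lie above filled symbols of the same clone and group in every case.

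Dppa4, the partner and chromosomal neighbour of Dppa2, read a little less in KO than in control cells in every pair, and was not called. Its probe set 1429597_at read 5737 and 7542 in KO cells of clone 15 and 5892 and 7546 in KO cells of clone 10 at day 4, against 6330 and 8259 in control cells of clone 15 and 6165 and 8121 in control cells of clone 10. At day 12 it read 5313 and 5554.5 in KO cells of clone 15 and 5916 and 5650 in KO cells of clone 10, against 6852 and 6087 in control cells of clone 15 and 6287 and 5668 in control cells of clone 10. The log2 fold change was -0.11 ± 0.14 at day 4 and -0.15 ± 0.14 at day 12 (limma adjusted p = 0.960 and 0.705), with KO below control in 4 of 4 pairs at each day and ranges that overlap.

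At day 4 the arrays of Dppa4 parted by replicate number rather than by genotype. The 4 arrays numbered 2 read 7542 to 8259 and the 4 numbered 1 read 5737 to 6330. Tdgf1 and the Dppa2 set 1429654_at parted in the same way at day 4, at 23457 to 24937 for replicate 2 and 21178 to 21721 for replicate 1 of Tdgf1, and at 4291 to 4749 for replicate 2 and 2224 to 3312 for replicate 1 of Dppa2. At day 12 the replicate numbers of these 3 probe sets overlapped, with Dppa4 at 5554.5 to 6087 in replicate 2 and 5313 to 6852 in replicate 1. The labels do not say what a replicate number marks.

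Utf1, another known target of Oct4 and Sox2, was the 1 member called lower. At day 4 its probe set 1416899_at read 6761 and 5755 in KO cells of clone 15 and 7447 and 6597 in KO cells of clone 10, against 7805 and 6165 in control cells of clone 15 and 8601 and 7109 in control cells of clone 10. At day 12 it read 4185 and 5862 in KO cells of clone 15 and 4577 and 6974 in KO cells of clone 10, against 6764 and 9487 in control cells of clone 15 and 10054.5 and 11665 in control cells of clone 10. KO was lower in 4 of 4 pairs at both days, yet the ranges overlap at both, since at day 12 the highest KO array, of clone 10, lies above the lowest control array, of clone 15. The log2 fold change was -0.16 ± 0.18 at day 4 (limma adjusted p = 0.944) and -0.82 ± 0.18 at day 12, a level 1.76-fold lower in KO cells (limma adjusted p = 0.0256). The difference of the effect between days, -0.66 ± 0.25, did not pass adjustment (limma unadjusted p = 0.0205).

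The day 12 call of Utf1 was lost without replicate 1 or 2 of the control cells of clone 10, replicate 2 of the control cells of clone 15, or replicate 1 of the KO cells of either clone, all of day 12 (limma adjusted p = 0.0611 to 0.0886, log2 fold change -0.82 to -0.70). Its second probe set, 1443786_at, read 334 and 438 in KO cells of clone 15 and 295 and 449 in KO cells of clone 10 at day 12, against 519.6 and 873 in control cells of clone 15 and 1043 and 790.3 in control cells of clone 10. These groups do not overlap, and the log2 fold change was -1.07 ± 0.30, which did not pass over every probe set (limma adjusted p = 0.121). At day 4 the same set read 372 to 777 in KO and 341 to 964 in control cells (0.01 ± 0.30). The third set, 1458333_x_at, was dim, at 5.10 to 80.7 over the 16 arrays, and its error of 0.86 on the log2 scale is larger than either KO difference.

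**Figure D3:**
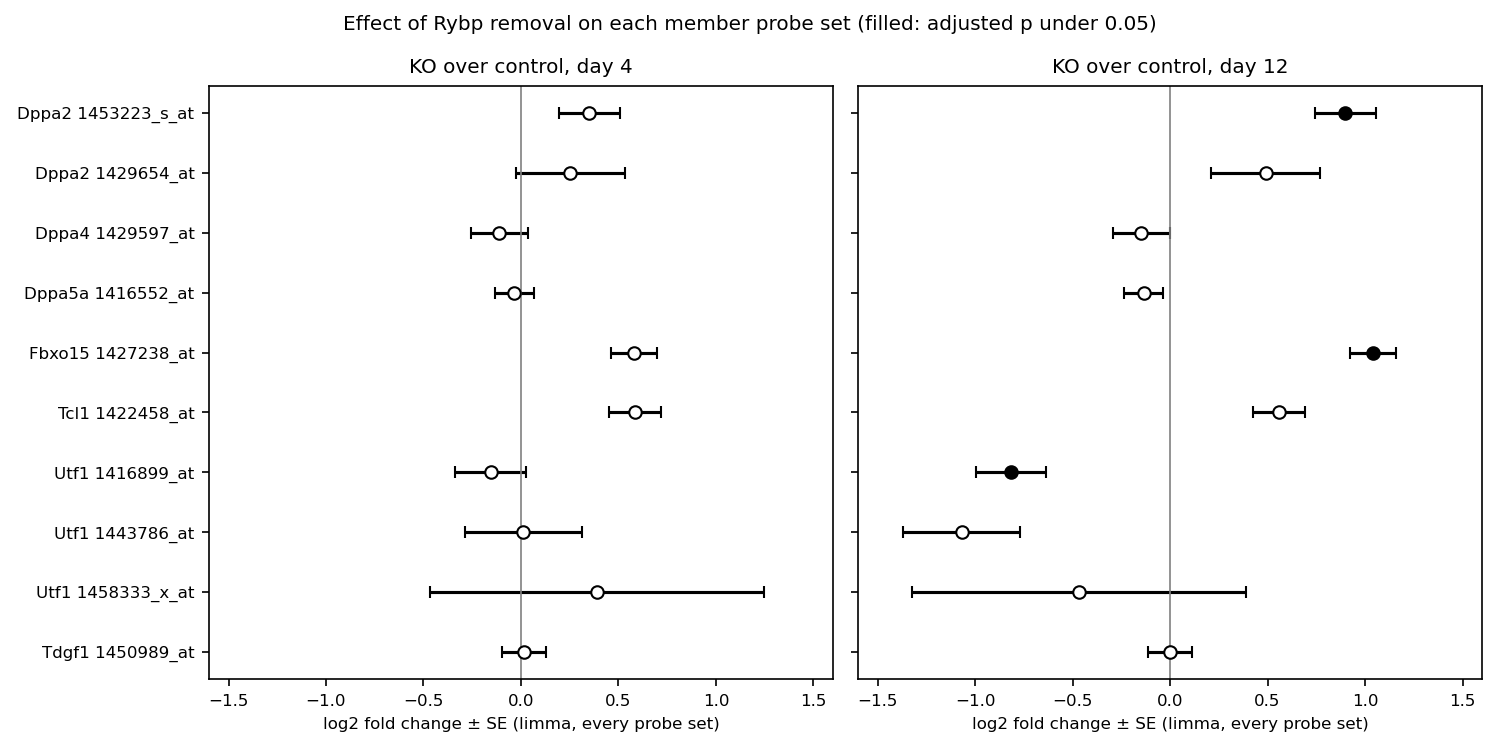
Log2 fold change of KO over control with its SE for each of the 10 probe sets at day 4 and day 12, from the fit over every probe set, with filled points at an adjusted p under 0.05. In that fit Fbxo15, Dppa2 on 1453223_s_at and Utf1 on 1416899_at are filled at day 12, and no point is filled at day 4, where Fbxo15 has a limma adjusted p of 0.0775.

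Tdgf1, the Nodal co-receptor, differed between KO and control cells by less than its SE at both days. Its probe set 1450989_at read 21178 to 24937 in KO cells with a median of 22854, against 21402 to 24040 in control cells with a median of 22589 at day 4, and 17927 to 21473 with a median of 20332 in KO cells, against 19474 to 20604 with a median of 19907 in control cells at day 12. The log2 fold change was 0.02 ± 0.10 at day 4 and -0.0007 ± 0.10 at day 12, with 2 of 4 pairs higher in KO at each day. The day 12 level was below the day 4 level by 0.20 ± 0.10 in KO cells and 0.18 ± 0.10 in control cells on the log2 scale, and neither passed (limma adjusted p = 0.390 and 0.475).

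Dppa5a lay at the top of the scale of these arrays. Its probe set 1416552_at read 43355 to 46129 in KO and 43979 to 46129 in control cells at day 4, and 41654.5 to 45023 in KO and 42744 to 52570 in control cells at day 12. Because every array holds the same set of values, a value this high is set by rank alone. The probe set held ranks from 1 to 26 among 45101, and identical values recur, such as 46129 in replicate 1 of clone 15 in both KO and control cells of day 4. The log2 fold changes of -0.03 ± 0.09 at day 4 and -0.14 ± 0.09 at day 12 (limma adjusted p = 0.993 and 0.539) are therefore limited by the scale, and a change in such a bright transcript may not be detectable here.

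No clone difference was called among the 7 genes. This holds for control cells of clone 15 against clone 10, averaged over both days, where the fit called 12 entries, or 0.066% (31 with the day and replicate sets as a block). The largest of the 7 differences were those of clone 15 over clone 10 in Utf1, at -0.30 ± 0.20 on the log2 scale, and in Tcl1, at 0.26 ± 0.13 (limma adjusted p = 0.991 for both). The KO effect at day 12 had the same sign in both clones for Fbxo15, Dppa2, Tcl1, Utf1, Dppa4 and Dppa5a, and for Tdgf1 it was -0.0015 in clone 15 and 0.0001 in clone 10. For Dppa2 it was 0.79 in clone 15 and 1.01 in clone 10, and for Utf1 -0.69 in clone 15 and -0.94 in clone 10. Within 1 clone, with 2 arrays a group and the spread of all 16 arrays, no day 12 call was kept in clone 15. In clone 10 that of Fbxo15 was kept.

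The surrounding gene lists, likewise chosen with earlier results known, held calls at day 12 that were all higher in KO cells. They are read beside 0.627% of all entries called at day 4 and 3.09% at day 12. Of the 563 day 12 calls over all entries, 399 were higher in KO cells too. Of 15 core and naive pluripotency factors the fit called 0 at day 4 and 1 at day 12, Tbx3, a T-box factor, at 860 ± 130 in KO and 374 ± 89.5 in control cells (SD, n = 4 each), a log2 fold change of 1.22 ± 0.23 SE (limma adjusted p = 0.0133). Of 17 measured genes among 20 other ES-associated genes it called 0 at day 4 and 2 at day 12, both higher in KO cells. Jam2, a junctional adhesion molecule, read 2847 ± 218 in KO and 1511 ± 97.1 in control cells (0.91 ± 0.20, limma adjusted p = 0.0266). Fut4 read 76.2 ± 27.8 in KO and 11.7 ± 8.68 in control cells (2.93 ± 0.59, limma adjusted p = 0.0180), a fold whose size rests on control values under the 25th percentile. The list medians at day 12 were 0.07 for the core and naive factors and -0.09 for the other ES-associated genes, against 0.01 over all entries.

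Lists tied to single members held the following calls. For Tdgf1, 15 of 17 genes of the Nodal pathway were measured, and 1 was called at day 12, Smad2, a transducer of Nodal signals, at 1281 ± 66.1 in KO and 918 ± 122 in control cells (0.49 ± 0.11, limma adjusted p = 0.0369), beside a list median of -0.16. For Tcl1, 13 of 17 genes of its family and of the Akt pathway were measured and none was called at either day. The smallest unadjusted p-values there belonged to Eras, an ES cell Ras protein (log2 fold change 0.30 ± 0.12 at day 4), and Tcl1b4, the neighbour of Tcl1 (-1.76 ± 0.77 at day 4, from arrays at 9.91 to 18.8 in KO and 20.4 to 93.0 in control cells). For Fbxo15, 9 SCF ligase genes were measured and none was called, with the scaffold Cul1 at 0.28 ± 0.16 and Nedd8 at 0.13 ± 0.10 at day 12.

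For Dppa2 and Dppa4, the list held 14 names of 2-cell embryo genes that the pair is known to activate, and 5 were measured. The fit called 2 of the 5 higher in KO cells at day 4 and 4 at day 12, beside 0.627% and 3.09% of all entries. Usp17la, a deubiquitinating enzyme gene, read 1285 to 6627 in KO and 18.1 to 88.6 in control cells at day 4, and 3886.5 to 4619 in KO and 52.4 to 82.8 in control cells at day 12. Zfp352, a zinc finger gene, read 323 to 465 in KO and 40.8 to 88.3 in control cells at day 4, and 584 to 786 in KO and 61.1 to 77.8 in control cells at day 12. Tcstv1 and Tcstv3 were called at day 12, from control arrays of 2.72 to 24.1 and of 5.16 to 14.1. Duxf3, the gene of the factor Dux, was not called (2.02 ± 0.69 at day 12, limma adjusted p = 0.166). The list median was 3.19 at day 12. The other 9 names, of which Dux is a second name of Duxf3, had no probe set of their own in the fit. Probe sets with several symbols, apart from those of Rybp, were left out of it.

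**Figure D4:**
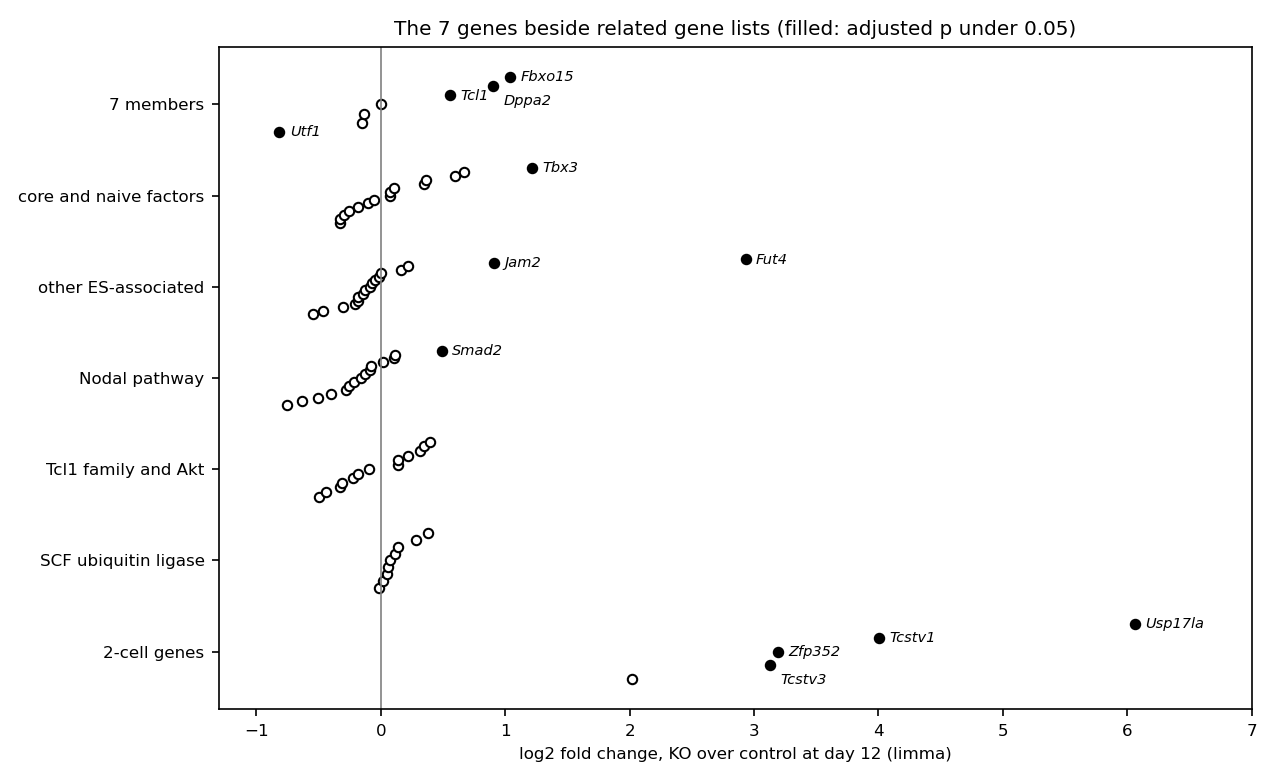
Log2 fold change of KO over control at day 12 for the 7 genes and for the measured genes of 6 related lists, 1 point per gene, with filled, named points at a limma adjusted p under 0.05 over all entries and a vertical spread within a row that only separates points. Of the 7 genes, Fbxo15, Dppa2 and Tcl1 lie on the higher side, between 0.56 and 1.04, and Utf1 at -0.82, while the 4 called 2-cell genes lie at 3.13 to 6.06.

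The genes whose log2 pattern over the 16 arrays was most like that of each member were looked up by Pearson's r among 9094 other genes with a mean above the median. These values describe arrays that share group, day, clone and normalization, and no test was made. For Fbxo15 they were Zcchc17 (0.97), Guca1a (0.97) and Sohlh2 (0.96), and for Tcl1 Vill (0.95), Hebp2 (0.93) and Lpar1 (0.92). For Dppa2 they were Zfp809 (0.94), Slirp (0.93) and Prdm14 (0.93), and for Dppa4 Platr4 (0.96), Fam169a (0.95) and Pkp2 (0.95). For Utf1 they were Patl1 (0.95), Tgif2 (0.93) and Crmp1 (0.92), for Tdgf1 Rnf125 (0.92), Nufip2 (0.91) and Nrf1 (0.91), and for Dppa5a Dcaf7 (0.76), Csnk1d (0.76) and Rbm12 (0.75). No member appeared among the nearest 3 genes of another.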

How the data were processed

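Total RNA from 16 ES cell samples was hybridised to Affymetrix mouse arrays. The authors deposited 1 intensity per probe set and array, on a linear scale, for 45101 probe sets. Affymetrix Expression Console and RMA are named in the submitters' processing notes, and no version, setting or genome build is given in the sources used here. All 16 arrays hold the same sorted values, from 0.144 to 52570, so they were normalized together before deposit, which fixes the brightest and dimmest values by rank. The array named in the design text (430A 2.0) is smaller than the one whose probe sets fill the table (430 2.0).

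The deposited intensity was log2-transformed here with no offset. After 64 control sets, 34945 sets had 1 symbol, 932 several and 9160 none. The set with the highest mean stood for each of 18193 genes, and 2 Rybp sets that also match its pseudogene made 18195 entries. Differences were fitted with limma 3.58.1 (statmod 1.5.0, R 4.3.3) on all 16 arrays with group and clone as terms, or a mean for each of the 8 cells of clone and group in comparisons of clones, with empirical Bayes and Benjamini-Hochberg adjustment over all entries at 0.05. Errors of log2 fold changes are SE. Simulated data with 200 entries changed by 1 on the log2 scale gave 67% recovered and 6 false calls at day 4, and 68.5% and 13 at day 12. The changed entries were drawn from those with a mean above the median, and the noise was independent between arrays. Recovery among dimmer entries and false calls under correlated noise were not tested.

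Residuals of KO and control arrays of the same clone, day and replicate number correlated over 9097 genes at 0.70 to 0.75 in the 4 pairs of day 4 and 0.17 to 0.44 in those of day 12, so the numbers were taken to pair the arrays in the block, from the data and not from the labels. Arrays of unlike replicate number or clone were not compared in this way. What the matched arrays share beyond a whole replicate set, or a clone at 1 day, is therefore not shown. Named genes are Rybp, the 7 genes, the 3 genes most like each, and, of each list, those called in a KO contrast (at most 5) or otherwise the 2 with the smallest p. Pou5f1, Sox2, Nanog, Zfp42, Esrrb, Alpl, Acta2, Tagln, Lum, Dcn, Pdgfrb, Duxf3, Gata6, Sox17, Krt18 and Cdx2 were named as markers or list genes after their values were seen. The members and lists were chosen with earlier results of these data known. Alternatives tried were the replicate block, a floor at the 25th percentile (28.3), only genes with a mean above the median, and every probe set. Others were a trend in the prior together with its robust estimation (both meant by the trend below), and no clone term. Arrays of 1 day, contrasts within each clone on all 16 arrays, and each array left out were tried too. The block was the pairs in KO contrasts, and sets of day and replicate number between control clones. In time contrasts it joined arrays of the same clone and replicate number across days, a link that the residuals did not check. Scanner files were not used here, so the background correction, normalization and scan date could not be varied. The number of arrays limits the precision.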

Additional observations from a re-analysis of the deposited data

Results flagged for a closer look

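In each gene, probe set and group of 4 arrays, the highest and lowest values were tested for standing apart from the other 3 by Dixon's ratio, the gap to the nearest value over the range. Of 40 groups 2 exceeded the 95% critical value, and chance alone gives about 1 in 20. In KO cells of day 4, Dppa5a read 46129 in replicate 1 of clone 15, against 43355 to 43718 on the other 3 arrays (ratio 0.869), at an end of the scale where values are set by rank. In control cells of day 4, the dim Utf1 set 1458333_x_at read 80.7 in replicate 2 of clone 10, against 8.73 to 20.7 on the other 3 arrays (ratio 0.833). The difference of the KO effect between days or clones was tested for the 7 genes, 14 tests in all, and limma called 0 over all entries.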

How the results depend on the processing

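With the replicate block the limma calls over all entries numbered 178 for KO against control at day 4, 1479 at day 12, 1 for the difference between days, 346 for control cells day 12 against day 4 and 31 for clone 15 against clone 10, and none of the 49 member results changed its call. The floor gave 216, 909, 490 for control cells, 1094 for KO cells day 12 against day 4, and 2 for the clone difference of the KO effect. Only genes above the median gave 485 for control cells, 1051 for KO cells and 1 for the clone difference. Every probe set gave 72 at day 4, and the trend gave 352 for control cells and 1 for the clone difference. With the 8 arrays of 1 day the counts were 36 at day 4 and 249 at day 12, from fewer arrays. Contrasts within clone 10 gave 22 and 81, and those within clone 15 gave 33 and 64. These compared 2 arrays a group, with the spread taken from all 16 arrays. Leaving out 1 array gave 66 to 111 at day 4, 287 to 536 at day 12, 0 to 0 between days, 94 to 167 for control cells, 239 to 593 for KO cells, 3 to 19 between clones and 0 to 1 for the clone difference. Over 1.5 times fewer were called at day 4 without KO replicate 1 of clone 10 (69), of clone 15 (66) or replicate 2 of clone 15 (70), and at day 12 without any day 12 array (287 to 370) but control replicate 1 of clone 15. Counts for control cells moved as far without any control array (94 to 115) but replicate 1 of clone 15 at either day, those for KO cells without any KO array (239 to 371) but replicate 1 of clone 15 at day 4, and those between clones without day 12 control replicate 1 of clone 10 (6), replicate 1 of clone 15 (3) or replicate 2 of clone 15 (19). For the 7 genes, the floor, the filter at the median and the trend also called Tcl1 at day 4 (limma adjusted p = 0.0192, 0.0181 and 0.0204) and Fbxo15 in KO cells day 12 against day 4 (0.0160, 0.0201 and 0.0150). Every probe set lost Fbxo15 at day 4 (0.0775) and Tcl1 at day 12 (0.0630). The arrays of 1 day lost Fbxo15 at day 4 (0.390) and Dppa2 (0.0682), Tcl1 (0.108) and Utf1 (0.127) at day 12. No called member changed its direction. Other causes of these changes were not tested. Background correction, normalization and scan date were not varied, and dim sets such as Utf1 1458333_x_at limit what can be detected.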
